A study of Cricetiscus sungorus with 16 samples.

Results

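The genes described here carry cholesterol to androgens in the ovary: the cholesterol transporter Star, the side-chain cleavage enzyme Cyp11a1 and its electron carriers Fdx1 and Fdxr, the 3β-hydroxysteroid dehydrogenases Hsd3b1 and Hsd3b6, the androgen-forming enzyme Cyp17a1 and its electron donor Por, and the reductase Srd5a1. They were chosen by the mouse transcript identifier that the array files give for each probe: NM_011485 (Star), NM_019779 (Cyp11a1), NM_007996 (Fdx1), NM_007997 (Fdxr), NM_008293 (Hsd3b1), NM_013821 (Hsd3b6), NM_007809 (Cyp17a1), NM_008898 (Por) and NM_175283 (Srd5a1). These are 9 of the 33272 identifiers on the array, read by 13 of its 41174 probes. Of the 9 genes, 8 passed the detection filter and were tested among 20145 identifiers, and Srd5a1 did not pass.

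Steroid synthesis begins when Star moves cholesterol to the inner mitochondrial membrane, where Cyp11a1 cuts it to pregnenolone with electrons passed on from Fdxr through Fdx1. Outside the mitochondrion, 3β-hydroxysteroid dehydrogenases turn pregnenolone into progesterone, and Cyp17a1, supplied with electrons by Por, makes androgen precursors. In the mammalian ovary the androgen steps belong mainly to theca and interstitial cells, and the androgens feed estrogen synthesis in granulosa cells.

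Expression was measured in ovaries of female Siberian hamsters, a species whose reproductive maturation is slowed by short days. The 4 groups held 4 hamsters each: short days (SD, 10 h of light) at 8 wk of age, long days (LD, 16 h of light) at 8 wk, SD at 3 wk and LD at 3 wk, all kept in their photoperiod from gestation on. RNA from the pair of ovaries of each hamster went onto its own single-colour mouse array, giving 16 arrays. For the SD hamsters at 8 wk the labels conflict, with 16 h in the title, source and treatment labels and 10 h in the descriptions. The titles also name SD, and 10 h was taken.

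The probes were designed on mouse transcripts, and their match to hamster transcripts was not tested, so every change below is a change of probe signal. A level is the log2 processed intensity minus the array's 75th percentile, and each probe is set only against itself. That percentile ran from 269 to 1007 over the arrays, between 56.6% and 75.6% of probes were well above background, and no spot was saturated. The arrays came on 4 slides, each with 1 array of every group, and slide accounted for 43.7% of the variance and group for 32.0%, over the 18654 identifiers with a value on all arrays. Results are therefore given without the slide and, where this changes a call, with the slide as a block. A group always had the same place on its slide, so place and group cannot be told apart. No symbols stand beside the identifiers in the files, so markers of ovarian cell types could not be matched, the tissue could not be checked by them, and their part in the results was not tested. In whole ovaries, fewer cells of a type and less RNA per cell cannot be told apart.

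Most of the pathway's signals were higher at 8 wk than at 3 wk. In SD ovaries 5 of the 8 tested genes rose between these ages (Star, Hsd3b1, Hsd3b6, Cyp17a1 and Por) at a limma adjusted p under 0.05, where 9.15% of all identifiers changed and 4.77% rose. The Star probe passed the detection filter through the 8-wk groups alone, so its place in these counts depends on groups where it was high. With slide as a block all 8 rose, where 23.1% of identifiers changed and 10.9% rose, and 7, 4, 6 and 5 did in the blocked fits without slides 1, 2, 3 and 4. In LD ovaries 1 of the 8, Por, rose, where 2.98% of identifiers changed and 1.2% rose, and with the block 3 rose (Por, Hsd3b1 and Hsd3b6), where 11.9% changed and 3.93% rose. No gene of the set was called between SD and LD at either age. Hsd3b1 and Hsd3b6 are each counted here and below, though their changes are not taken as separate observations.

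**Figure D1:**
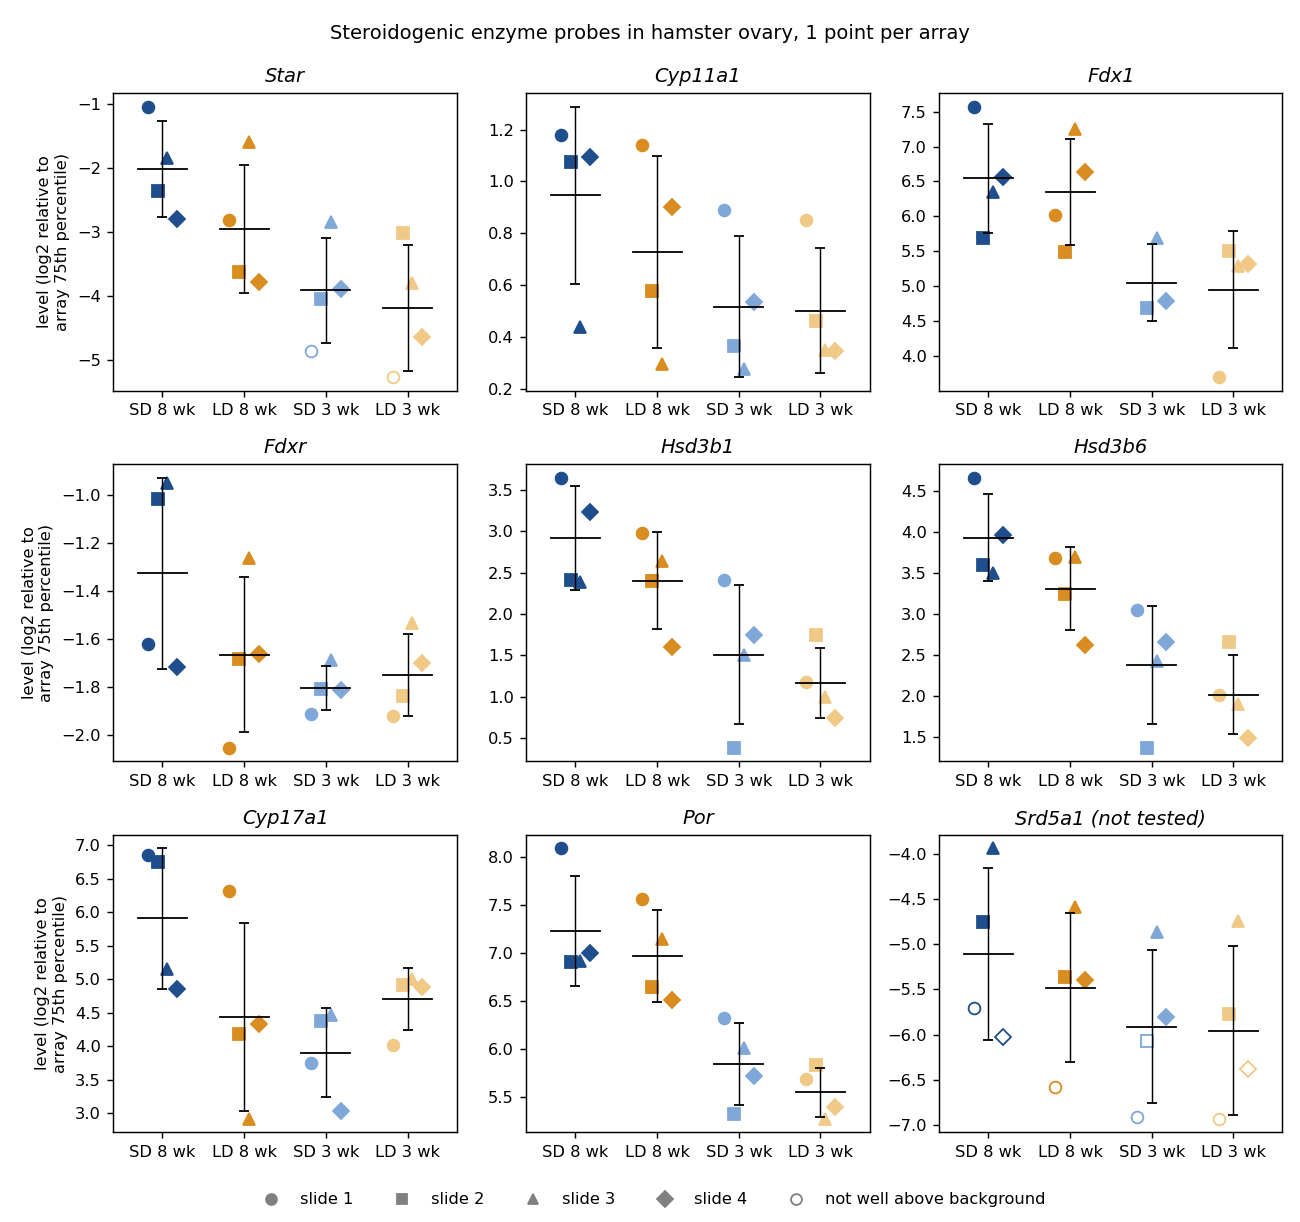
Level of each gene's probe on every array (log2 relative to the array's 75th percentile; vertical scales differ between panels), with 1 point per array, the symbol marking the slide, bars for the mean and whiskers for the SD, and open points where the signal was not well above background. Most panels step down between the 8-wk and 3-wk groups, and Cyp17a1 has its highest arrays in SD at 8 wk (4.86 to 6.85) with LD at 8 wk spread from 2.92 to 6.32.

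Star, whose transport of cholesterol into the mitochondrion is the acutely regulated step of steroid synthesis, gave levels of −1.04, −2.36, −1.84 and −2.79 in SD ovaries at 8 wk, against −4.85, −4.05, −2.84 and −3.89 in SD ovaries at 3 wk. In LD ovaries it gave −2.81, −3.61, −1.60 and −3.78 at 8 wk and −5.26, −3.01, −3.80 and −4.64 at 3 wk. The SD ages did not overlap, with the lowest array at 8 wk just above the highest at 3 wk, while the LD ages did. Star rose 3.73-fold with age in SD, a log2 change of 1.90 (SE 0.56, limma adjusted p = 0.0449, and 0.0152 in the fit with the block). It was higher at 8 wk on 4 of 4 slides, by 1.0 to 3.81, the 3.81 being on slide 1, where the SD 3-wk array was not well above background. In LD the difference was 1.23 (95% interval 0.04 to 2.42, adjusted p = 0.351), and it did not pass with the block either (adjusted p = 0.136).

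The Star signal was well above background on 14 of 16 arrays, the other 2 being the 3-wk arrays of slide 1. The probe thus passed the filter through the 8-wk groups alone, and the fold above includes a 3-wk array not well above background. Its second probe, A_52_P165654, was dimmer and failed the filter. That probe showed no such difference, with means of −4.85 ± 0.87 for SD 8-wk and −4.61 ± 0.41 for SD 3-wk ovaries, and of −4.94 ± 0.44 for LD 8-wk and −4.83 ± 0.34 for LD 3-wk ovaries (SD, n = 4 each). The SD rise was 0.98 after normexp background correction (adjusted p = 0.117) and 1.26 without slide 1 (adjusted p = 0.18). It lost its call without replicates 1, 2 or 3 of SD at 8 wk, 1, 2 or 4 of SD at 3 wk, 2 of LD at 8 wk, or 3 or 4 of LD at 3 wk, each left out singly (adjusted p 0.0509 to 0.134).

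Cyp11a1, the first enzyme of the pathway, was measured well above background on all 16 arrays. It stood at 1.18, 1.08, 0.44 and 1.09 in SD ovaries at 8 wk, against 0.89, 0.36, 0.28 and 0.53 in SD ovaries at 3 wk. In LD ovaries the levels were 1.14, 0.58, 0.30 and 0.90 at 8 wk and 0.85, 0.46, 0.35 and 0.34 at 3 wk. All 4 groups overlapped. The age difference in SD was 0.43 (SE 0.21, a 1.35-fold difference), which did not pass without the block (limma adjusted p = 0.28) and passed with it (SE 0.12, adjusted p = 0.0187), and the 8-wk array was higher on 4 of 4 slides, by 0.16 to 0.71. In LD it was 0.23 (95% interval −0.22 to 0.68, adjusted p = 0.788).

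Slide accounted for 55.5% of the variance of Cyp11a1 over arrays and group for 31.3%. A second probe, A_51_P309733, was well above background on only 6 arrays and was not tested. It stood well above background on 3 of 4 arrays in SD at 8 wk and on 0 of 4 in SD at 3 wk. The difference of group means was 3.06-fold, higher at 8 wk. It is a plain difference that includes signals not well above background, and is not a lower bound. A single array, SD 8-wk replicate 3 at −2.16, stood far above the other arrays of its group, which lay between −5.39 and −4.36. Without that array the difference was 1.87-fold.

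Fdx1, the ferredoxin that hands electrons to Cyp11a1, had levels of 7.57, 5.69, 6.36 and 6.56 in SD at 8 wk, against 4.69, 5.69 and 4.78 in SD at 3 wk, where replicate 1 was left out as an outlier spot. In LD they were 6.02, 5.49, 7.24 and 6.63 at 8 wk and 3.70, 5.50, 5.28 and 5.31 at 3 wk. In SD the lowest 8-wk array (5.6872) was barely above the highest 3-wk array (5.6869), and the LD ages overlapped. The age difference was 1.49 in SD (SE 0.51, limma adjusted p = 0.0875) and 1.40 in LD (SE 0.47, adjusted p = 0.15), and the fit with slide as a block, which sets the 3 measured SD 3-wk arrays against the others with allowance for their slides, gave 1.55 in SD (SE 0.50, adjusted p = 0.0439) and 1.40 in LD (adjusted p = 0.0705).

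The 3 Fdx1 probes gave like differences between ages. Beside the 1.49 and 1.40 above, the difference of group means was 1.44 in SD and 1.81 in LD for A_51_P291135, and 1.41 in SD and 1.43 in LD for A_51_P291129. By these probes the ages did not overlap in SD or in LD, with outlier spots left out. For the probe used, the SD difference passed when LD 3-wk replicate 1, the lowest array of its group, was left out (limma adjusted p = 0.0409).

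**Figure D2:**
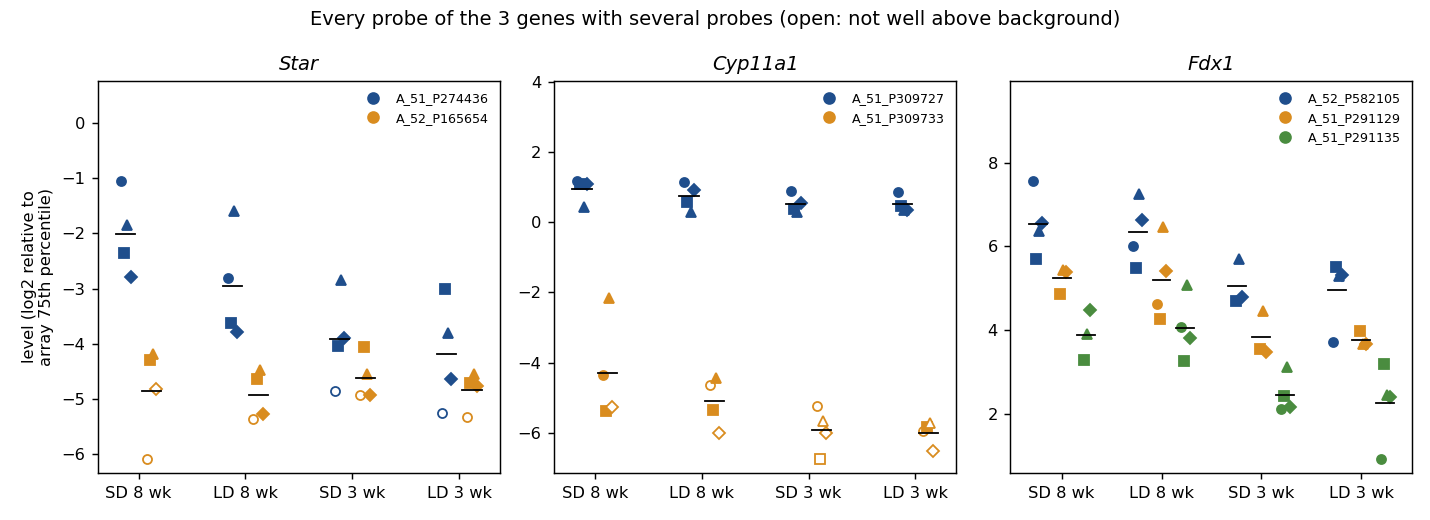
Levels of every probe of the 3 genes with several probes, by group (log2 relative to the array's 75th percentile; 1 point per array, bars for means, open points not well above background). The 3 Fdx1 probes step down together between 8 and 3 wk, whereas the second Star probe (means −4.85 in SD at 8 wk and −4.61 in SD at 3 wk) does not.

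Fdxr, the reductase that loads electrons onto Fdx1, gave −1.62, −1.02, −0.95 and −1.72 in SD at 8 wk, against −1.91, −1.81, −1.69 and −1.81 in SD at 3 wk. In LD it gave −2.05, −1.68, −1.26 and −1.66 at 8 wk and −1.92, −1.84, −1.53 and −1.70 at 3 wk. Only replicates 2 and 3 of SD at 8 wk stood above every other array of the gene. Its age difference in SD was 0.48 (SE 0.20, limma adjusted p = 0.168), which passed in the blocked fit (SE 0.13, adjusted p = 0.021), and in LD it was 0.08 (95% interval −0.33 to 0.50, adjusted p = 0.961). The 8-wk array was above the 3-wk array on all 4 slides in SD, by 0.10 to 0.79.

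Of the 3β-hydroxysteroid dehydrogenases, Hsd3b6 gave 4.66, 3.59, 3.50 and 3.96 in SD at 8 wk, against 3.05, 1.36, 2.42 and 2.66 in SD at 3 wk. In LD it gave 3.68, 3.24, 3.70 and 2.62 at 8 wk and 2.01, 2.65, 1.89 and 1.48 at 3 wk. In SD the ages did not overlap, and in LD the lowest 8-wk array lay just under the highest 3-wk array. Hsd3b6 rose 2.94-fold in SD, a log2 change of 1.56 (SE 0.36, limma adjusted p = 0.0121), by 1.08 to 2.23 on each slide. In LD the difference was 2.46-fold (log2 1.30, SE 0.36) and was called only with slide as a block (adjusted p = 0.0249, against 0.0671 without it).

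Hsd3b1 gave 3.65, 2.41, 2.39 and 3.23 in SD at 8 wk, against 2.41, 0.38, 1.50 and 1.75 in SD at 3 wk. In LD it gave 2.98, 2.40, 2.64 and 1.60 at 8 wk and 1.17, 1.74, 0.99 and 0.74 at 3 wk. Both pairs of ages touched, each through a single 3-wk array. The gene rose 2.66-fold in SD, a log2 change of 1.41 (SE 0.40, limma adjusted p = 0.0372), and in LD the difference of 1.24 (SE 0.40) passed only with slide as a block (adjusted p = 0.0416, against 0.124 without it).

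Hsd3b1 and Hsd3b6 are close relatives in the mouse, and whether their probes read separate hamster transcripts was not tested. After the slide means were taken out, their levels over the 16 arrays correlated at r = 0.991, the highest of 18653 identifiers for Hsd3b1. For Hsd3b6 this correlation was number 2 in rank, after an identifier outside the set, NM_153193, at 0.993. Their changes are therefore not taken as separate observations. The rise of Hsd3b6 in SD kept its call in each of the 16 fits that left out 1 array, while it lost it without slide 2 (adjusted p = 0.077) or slide 3 (0.0641). That of Hsd3b1 lost its call without replicate 1 or 4 of SD at 8 wk, or 2, 3 or 4 of SD at 3 wk (adjusted p 0.0548 to 0.131).

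Por, the reductase that supplies electrons to Cyp17a1 and to other microsomal oxidases, changed with age in both photoperiods. Its levels were 8.09, 6.91, 6.92 and 7.0 in SD at 8 wk, against 6.32, 5.32, 6.01 and 5.72 in SD at 3 wk. In LD they were 7.56, 6.65, 7.14 and 6.51 at 8 wk and 5.69, 5.83, 5.28 and 5.40 at 3 wk. Every 8-wk array lay above every 3-wk array, across photoperiods too. Por rose 2.61-fold in SD, a log2 change of 1.38 (SE 0.29, limma adjusted p = 0.00722), and 2.67-fold in LD, a log2 change of 1.42 (SE 0.29, adjusted p = 0.0161), and the difference between these changes was −0.03 (95% interval −0.92 to 0.85).

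Group held 77.1% of the variance of Por over arrays, against 8.64% left after group and slide. The SD rise kept its call in all 16 fits without 1 array, and lost it without slide 2 (adjusted p = 0.0802) or slide 4 (0.0574). The LD rise lost its call without LD 8-wk replicate 3 (1.36, adjusted p = 0.051) or LD 3-wk replicate 4 (1.37, adjusted p = 0.0613), and without slide 3 (adjusted p = 0.207) or slide 4 (0.156).

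Cyp17a1, which commits the pathway to androgens and marks theca and interstitial cells in the rodent ovary, followed another pattern. Its levels were 6.85, 6.75, 5.15 and 4.86 in SD at 8 wk, against 6.32, 4.18, 2.92 and 4.33 in LD at 8 wk. At 3 wk they were 3.75, 4.38, 4.46 and 3.02 in SD and 4.01, 4.90, 5.0 and 4.89 in LD. Every SD array at 8 wk stood above every SD array at 3 wk, whereas the LD arrays at 8 wk reached both above and below those at 3 wk.

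Cyp17a1 rose 4.0-fold between 3 and 8 wk in SD, a log2 change of 2.0 (SE 0.60, limma adjusted p = 0.0479, and 0.0244 in the fit with the block), by 0.69 to 3.11 on each slide. In LD the age difference was −0.27 (95% interval −1.54 to 1.01, adjusted p = 0.959), and within slides it was 2.31, −0.73, −2.08 and −0.56. The change in SD minus that in LD was 2.27 (SE 0.85, 95% interval 0.46 to 4.07), with an unadjusted p of 0.017 (3.05% of identifiers had one under 0.05) that did not pass over all identifiers (adjusted p = 1, and 0.453 in the blocked fit), where 0.0596% of identifiers were called, and 0.174% with the block. So the age changes of Cyp17a1 in SD and LD were not shown to differ.

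The SD rise of Cyp17a1 lost its call in 12 of the 16 fits without 1 array, those without replicate 1, 2 or 3 of SD at 8 wk, any array of SD at 3 wk, 2 or 4 of LD at 8 wk, or 2, 3 or 4 of LD at 3 wk (adjusted p 0.0504 to 0.157), with differences between 1.68 and 2.35 over the 16 fits. The pooled SD of its levels within groups was 0.966, above that of 98.1% of identifiers, and for Star it was 0.895, above that of 97.3%.

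**Figure D3:**
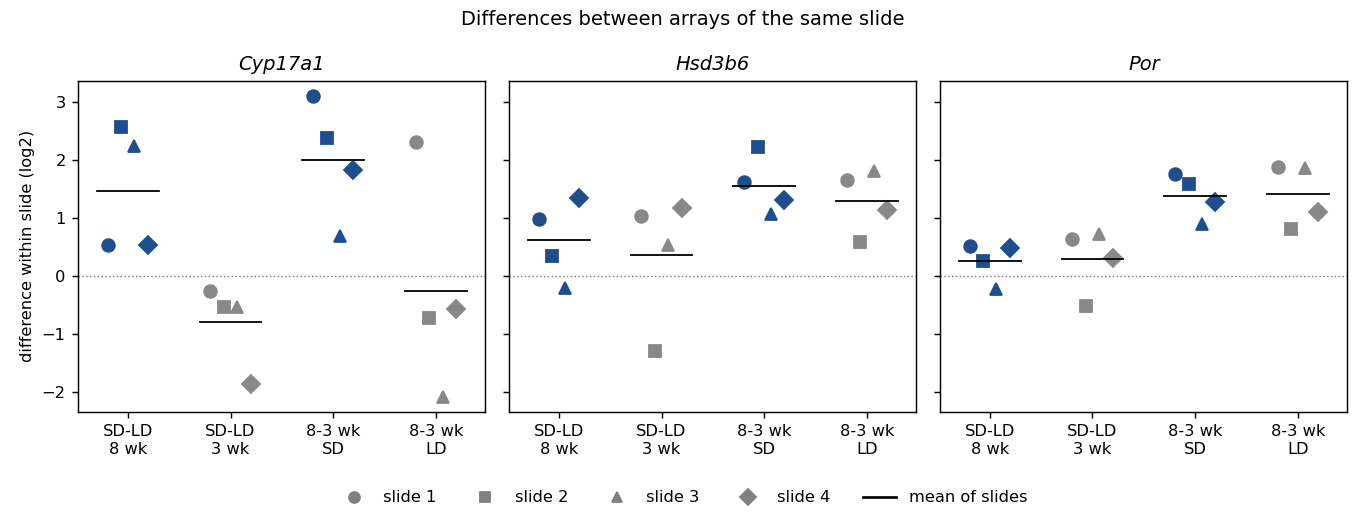
Differences between arrays of the same slide (log2; 1 point per slide, bars for the mean) for Cyp17a1, Hsd3b6 and Por, for SD minus LD at 8 and 3 wk and for 8 minus 3 wk in SD and LD. For Cyp17a1 all 4 SD minus LD points lie above 0 at 8 wk (0.53 to 2.58) and below 0 at 3 wk (−1.86 to −0.26), while Hsd3b6 and Por lie above 0 on every slide for both age changes.

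Srd5a1, which reduces testosterone and progesterone, was well above background on 9 of the 16 arrays, at levels between −6.93 and −3.94, and was not tested. Its means were −5.11 ± 0.95 in SD and −5.48 ± 0.83 in LD at 8 wk, and −5.91 ± 0.84 in SD and −5.96 ± 0.94 in LD at 3 wk (SD, n = 4). The groups overlapped throughout.

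Set by age, the order of group means was the same for Star, Cyp11a1, Fdx1, Hsd3b1, Hsd3b6 and Por: SD at 8 wk, LD at 8 wk, SD at 3 wk and LD at 3 wk, high to low. Neighbouring groups of the same age overlapped in each of these genes. The share of all identifiers with this order was not counted. The place of SD above LD at 3 wk rested on small differences in Cyp11a1 and Fdx1, which turned below 0 in 7 of 39 and 9 of 38 alternative settings, and within slides Fdx1 was lower in SD at 3 wk on 2 of 3, by a mean difference of −0.32. The Star difference at 3 wk turned below 0 in 2 of 38 settings. At 8 wk the SD minus LD difference turned below 0 in 5 of 38 settings for Fdx1 and in 1 of 39 for Por. For Por, LD at 8 wk and SD at 3 wk, the neighbours of different age, did not overlap. Fdxr kept the 8-wk groups on top with LD above SD at 3 wk, all neighbours overlapping. Cyp17a1 kept another order, with LD at 3 wk (4.70 ± 0.46) between LD at 8 wk (4.44 ± 1.41) and SD at 8 wk (5.90 ± 1.05) and SD at 3 wk lowest (3.90 ± 0.67; SD, n = 4), and its neighbours overlapped too.

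Over the 8 tested genes the median age difference was 1.45 in SD and 1.24 in LD (log2), against 0.00 and −0.04 over all identifiers. All 8 differences were above 0 in SD and 7 in LD, against 50.1% and 43.2% of identifiers. Of these genes, Hsd3b1 and Hsd3b6 are not taken as separate observations. The age ranges did not overlap in SD for Star, Hsd3b6, Cyp17a1, Fdx1 and Por, 5 genes, all higher at 8 wk, where 15.9% of identifiers did not overlap and 8.12% were higher. Among these, the Star probe passed the detection filter through the 8-wk groups alone. In LD only Por, by the probes used, had age ranges that did not overlap, where 8.71% of identifiers had such ranges and 3.44% were higher. Fdx1 was apart in SD only by 5.6872 against 5.6869, with an SD 3-wk array missing. By its unused probes, the LD ages of Fdx1 did not overlap either. None of the 8 genes passed the test of the difference between the SD and LD age changes, so the counts of 5 and 1 do not show that the set changed more in SD.

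**Figure D4:**
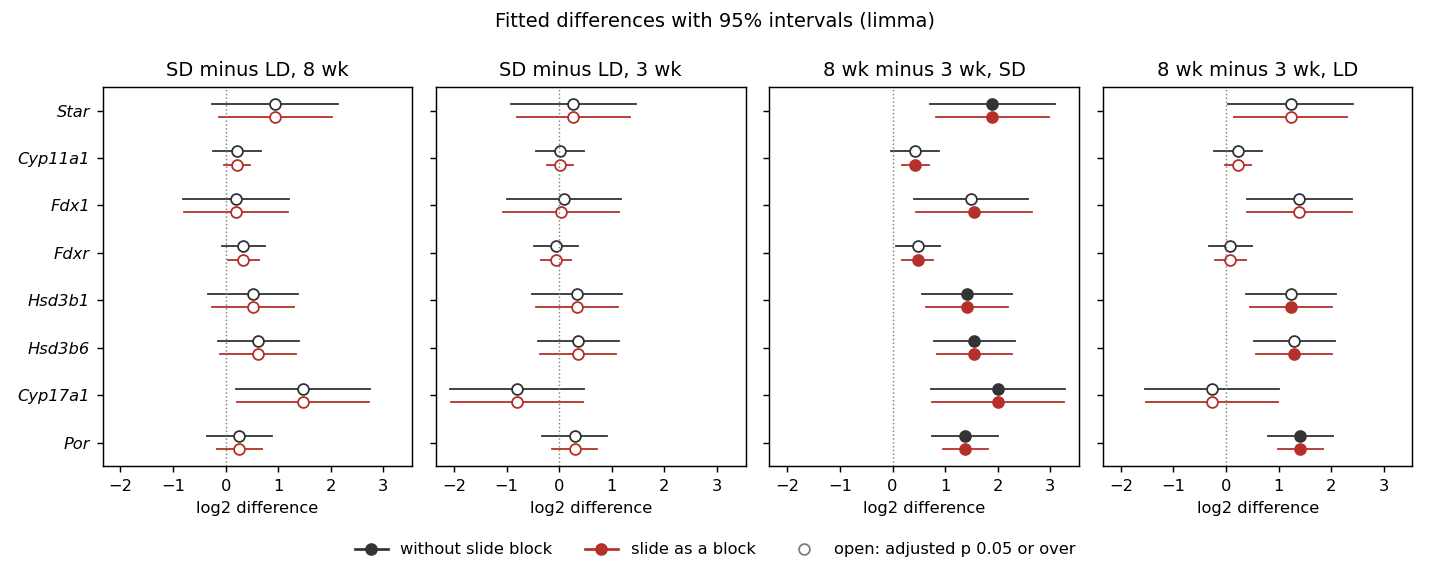
Fitted differences (log2) with 95% intervals for the 8 tested genes in the 4 comparisons, without the slide (black) and with slide as a block (red), open where the adjusted p was 0.05 or over. Points of both SD minus LD comparisons are open for every gene, and in the SD age comparison all 8 are filled with the block and 5 without it.

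The comparison of SD with LD ovaries asked whether day length altered the pathway at a given age. At 8 wk none of the 8 genes passed in limma (0.958% of identifiers did) or with slide as a block (2.62%), and at an unadjusted p under 0.05 there were 1 without the block, Cyp17a1, where 6.93% of identifiers had one, and 2 with it, Cyp17a1 and Fdxr, where 14.1% had one. All 8 differences were above 0, as were those of 48.0% of identifiers, with a median of 0.43 over the 8 against −0.01. That of Fdx1, 0.20, was above 0 on 2 of 4 slides and turned below 0 in 5 of 38 alternative settings. Its unused probes gave differences of group means of −0.17 (A_51_P291135) and 0.04 (A_51_P291129). The Por difference turned below 0 in 1 of 39 settings. In no gene were the SD and LD arrays apart, where 4.11% of identifiers were.

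Cyp17a1 had the largest of the 8-wk differences, 1.47 (SE 0.60, 95% interval 0.19 to 2.74, limma adjusted p = 0.544), higher in SD on 4 of 4 slides by 0.53, 2.58, 2.24 and 0.53. Among the fits without 1 array it ran from 0.96, when replicate 3 of LD at 8 wk was left out, to 2.10, when replicate 1 of that group was. Its interval thus runs to a 6.70-fold difference. Star differed by 0.94 (95% interval −0.25 to 2.13), with SD higher on 3 of 4 slides. The intervals of the other genes reached from −0.15 to 1.39 for Hsd3b6, from −0.34 to 1.37 for Hsd3b1, from −0.81 to 1.20 for Fdx1, from −0.08 to 0.75 for Fdxr, from −0.36 to 0.89 for Por and from −0.23 to 0.67 for Cyp11a1. Differences of 2-fold were therefore outside the interval for Fdxr, Por and Cyp11a1 and within it for the other 5.

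At 3 wk none of the 8 passed in limma, where 0% of identifiers were called, either without the block or with it, and none had an unadjusted p under 0.05, where 1.64% of identifiers had one without the block and 6.45% with it. Differences were above 0 for 6 of the 8 (37.4% of identifiers) and the median was 0.19, against −0.05 over all. Cyp17a1 was the lowest, at −0.80 (SE 0.60, 95% interval −2.07 to 0.48), SD being lower on 4 of 4 slides, with differences of −0.26, −0.53, −0.54 and −1.86. Hsd3b6 differed by 0.36 (95% interval −0.40 to 1.13), Hsd3b1 by 0.35, Por by 0.29 and Star by 0.27 (95% interval −0.92 to 1.46), and Cyp11a1 by 0.01 (95% interval −0.44 to 0.47). The SD and LD arrays overlapped in every gene, where 1.71% of identifiers were apart.

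**Figure D5:**
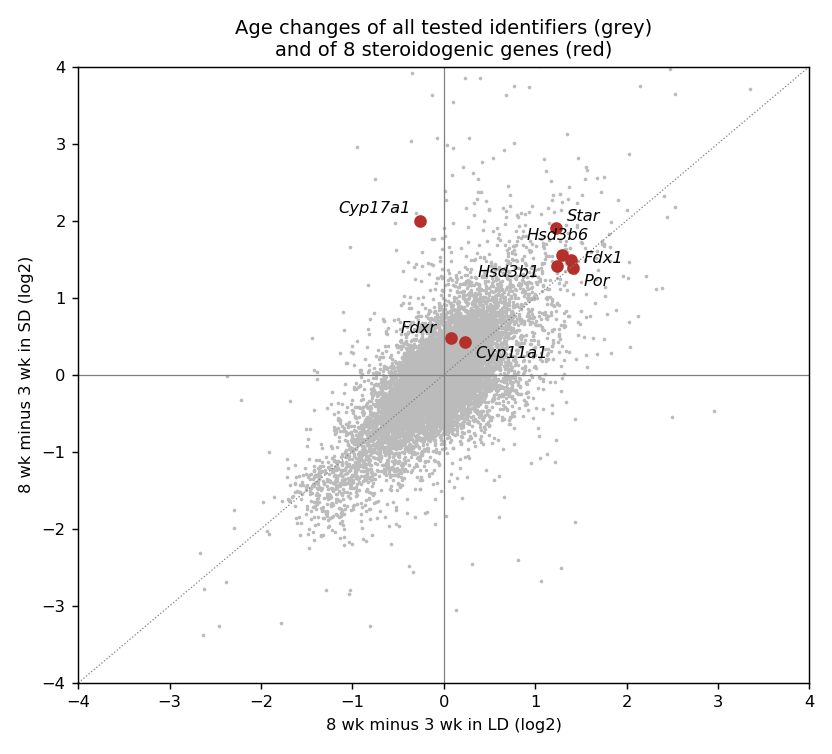
Fitted change between 3 and 8 wk in SD (vertical) against that in LD (horizontal), both log2, for all 20145 identifiers (grey; 16 lie outside the axes) and the 8 tested genes (red), with the line of equal change dotted. No array is shared between the axes, and Cyp17a1 stands away from the line at 2.0 in SD and −0.27 in LD while Por lies on it at 1.38 and 1.42.

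Likeness between genes was described by the correlation of slide-centred levels over the 16 arrays, which the age groups share, among 18653 identifiers measured on every array; Fdx1 was left out for its missing array. Por and Hsd3b6 correlated at 0.945 and Por and Hsd3b1 at 0.924, and Star stood at 0.904 with Por, which was number 10 in rank for Star. Cyp17a1 was less like them, at 0.559 with Star, 0.364 with Hsd3b6 and 0.333 with Hsd3b1, and its closest among the set was Cyp11a1 at 0.606. Fdxr was also less like them, at 0.503 with Star, 0.543 with Hsd3b6, 0.463 with Hsd3b1 and 0.557 with Por. The identifier outside the set most like Star was NM_146927 (r = 0.951) and that most like Cyp17a1 was AK013788 (r = 0.842), neither of which the files pair with a symbol. AK013788 had age differences of 1.44 in SD and −0.31 in LD. It was picked for its likeness over these same arrays, so these differences are no support for the Cyp17a1 pattern.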

How the data were processed

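The authors hybridised Cy3-labelled ovary RNA to a mouse oligonucleotide array and, per the file headers, used Agilent Feature Extraction 10.5.1.1 on the scans. The deposited scanner files give a background-corrected, linear processed intensity for each spot without scaling across arrays, and flags that mark outliers and signal well above background. A value table deposited by the authors repeats these intensities, rounded, with column medians from 26.6 to 91.5. It matched the scanner files within 0.5% except for 4 cells of a single column, and served as an alternative.

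Samples were grouped by their descriptions, and SD at 8 wk was taken as 10 h of light. Replicate numbers are those of the slide, read from the file headers. Deviations from group means were shared within a slide, with correlations of 0.224 to 0.727 over 24 pairs (median −0.113 between slides), so the slide block is printed where it changes a call.

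Levels are log2 of the deposited intensity minus each array's 75th percentile over probes, after control and outlier spots were removed and replicate spots averaged. A probe passed if all 4 arrays of some group had it well above background and if it was measured on at least 12 of 16 arrays and 2 of each group and slide. Of several probes per identifier the brightest was used. limma 3.58.1 in R 4.3.3 (lmFit, eBayes with an intensity trend) was fitted over all 16 arrays, with Benjamini-Hochberg adjustment over 20145 identifiers and a threshold of 0.05. The fit was tested on simulated data without a slide effect, so that test cannot speak to the spread shared within slides. The number of arrays limits precision. In the fit without the slide, p-values measure the spread between arrays of a group, which includes differences between slides. Slide held 43.7% of the variance over the identifiers with a value on all arrays, against 24.2% left after group and slide. Each hamster had its own array, so spread between hamsters and spread between arrays cannot be told apart in either fit.

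The genes and lists were chosen with earlier results of these data known. All 9 genes are named, with the identifiers most like Star, Hsd3b6 and Cyp17a1. Lists of other pathway genes and cell type markers, written by symbol, could not be matched and were not tested. Gene sequences were not used here. Alternatives covered normalization, background correction, the dim-probe filter, use of probes, outlier spots, the intensity trend, array weights, the value table, the slide block, the samples fitted, and leaving out arrays and slides.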

Additional observations from a re-analysis of the deposited data

Results flagged for a closer look

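In 4 of the 47 sets of 4 arrays examined, over all probes of the genes, a single array lay far from the other 3, and chance flags about 1 in 20. All 4 were among the 31 sets of the probes used. Cyp11a1 in SD at 8 wk was low on replicate 3, at 0.44 with the next array at 1.08. Cyp17a1 in LD at 3 wk was low on replicate 1, at 4.01 with the next at 4.89. Fdx1 in LD at 3 wk was low on replicate 1, at 3.70 with the next at 5.28. Por in SD at 8 wk was high on replicate 1, at 8.09 with the next at 7.0. The replicate 1 arrays are those of slide 1, with 75th percentiles of 269 to 370, against 736 to 1007 on the other slides. The photoperiod difference of Cyp17a1 had opposite signs at the ages, above 0 on all 4 slides at 8 wk and below 0 on all 4 at 3 wk, and the differences were 2.27 apart (log2). The fitted test of this gap did not pass (limma adjusted p = 1, and 0.453 in the blocked fit). All tested genes measured on every array were searched for such opposite signs, and the share of all identifiers with them was not counted. The causes of these patterns were not tested.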

How the results depend on the processing

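Across 39 alternative settings no called difference changed direction, and 12 of the 40 gene differences, none of them called, changed sign in some setting. None of the 8 genes was called in either SD minus LD comparison or in the difference between the age changes under any setting run. The number of genes changed with age in SD, 5, was 8 with slide as a fixed replicate block or as a random block, 3 without the filter on dim probes, 3, 0, 1 and 1 without slides 1, 2, 3 and 4, and 2 to 6 when single arrays were left out. The number changed in LD, 1, was 2 with quantile normalization, with outlier spots kept, with array weights and with the 75th percentile over all spots, 3 with slide as a fixed block and 4 as a random block, 4 with the block and without slide 2, 0 without slide 3 or 4, and 0 to 2 when single arrays were left out. Over its settings the SD rise lost its call in 17 of 38 for Star (adjusted p 0.00715 to 0.18), 21 of 39 for Cyp17a1 (0.0115 to 0.306), 9 for Hsd3b1 (0.0059 to 0.165), 2 for Hsd3b6 (0.00161 to 0.077) and 2 for Por (0.000133 to 0.0802), and the LD rise of Por in 4 (0.000379 to 0.207). The SD difference was called in 6 of 38 settings for Fdx1 (0.0233 to 0.402), 1 of them the mean of its probes, which mixes probes where an array lacks one, 4 of 39 for Cyp11a1 (0.0187 to 0.821) and 5 for Fdxr (0.0186 to 0.701). The cause of these shifts was not tested, and the fits without arrays or slides also had fewer arrays. Chosen after seeing the data were the 75th percentile over all spots, signals near background raised to the floor, the block without each slide, and a cap on bright local backgrounds in the normexp correction.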
